A study of Mus musculus with 3 samples.

Results

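The liver bud of the mouse embryo was followed through 8 genes. Alb (albumin), Afp (alpha-fetoprotein), Ambp and Ahsg encode secreted proteins of the young liver, and Foxa1, Foxa2, Foxa3 and Hnf4a encode transcription factors of liver and gut endoderm. The 8 genes were fixed by name. Their probes were found through the RefSeq accession that the array gives for each probe, and they are 8 of 13184 genes read above background on at least 1 array. All 8 had a probe, and all 8 were well above background on all 3 arrays by at least 1 probe.

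Hepatoblasts are the bipotent cells of the liver bud, which give rise to hepatocytes and bile duct cells. They leave the ventral foregut endoderm, invade the septum transversum mesenchyme and switch on Alb, while Afp is also made in large amounts by the yolk sac endoderm. FOXA proteins are pioneer factors that open chromatin at liver genes before these genes are transcribed, and HNF4A is a nuclear receptor that drives hepatocyte genes. The FOXA factors are not restricted to liver: Foxa1 and Foxa2 are also known from floor plate, notochord and the rest of the gut tube.

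The embryos came from a study of the small Maf proteins, which pair with CNC and BACH family factors to bind DNA. The first group was MafF-/-:MafG-/-:MafK-/- whole embryos at E10.5 (triple null). The other groups were MafF-/-:MafG+/+:MafK-/- whole embryos at E10.5 and at E9.5 (MafG-intact), so both genotypes lacked MafF and MafK. All embryos were of mixed genetic background, and total RNA of 3 embryos was pooled for each group. Each pool was hybridised to 1 Agilent array with Cy3 label, all on slide 1 in scan 1. Because each group is 1 array, replicate error is unknown, no difference was tested, and "higher" and "lower" describe these 3 arrays. The error given with a value is the Agilent software's own error of the spot signal, which covers the spot and not the embryos.

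Between 69.1% and 70.4% of 41170 probes were well above background on each array, and no spot was saturated. The targeted gene followed the labels: Mafg did not rise above background in the triple null pool, where its signal was lower than in MafG-intact embryos of the same stage by a factor of at least 173. Where its probe lies relative to the deleted part of the gene was not checked. Of the 3 pools, the MafG-intact one at E10.5 alone gave an Xist signal above background (at least 141-fold over triple null), and the Y-linked gene Ddx3y was read above background in the remaining pools only. The MafG-intact E10.5 pool therefore differed from the other pools in the sex of its embryos as well as in genotype or stage. Triple null and E9.5 embryos were alike in these genes (Ddx3y level 0.41 and 0.17). The part of sex in the differences below was not tested. All 10 hepatoblast markers (Alb, Afp, Ambp, Ahsg, Ttr, Hnf4a, Foxa3, Dlk1, Krt8 and Krt18) were above background on every array.

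The secreted protein genes are shown first with the sequence around their start sites, together with Foxa3, the transcription factor that differed most between arrays. Each window runs from 250 bases before to 50 bases after the annotated start, from RefSeq on GRCm38.p6, which is not the build of the array design. Alb lies at chr5:90460620-90460919 (plus strand), and its neighbour on the same chromosome, Afp, has its window at chr5:90490464-90490763 (plus strand). Ambp lies at chr4:63154123-63154422 (minus strand), Ahsg at chr16:22891765-22892064 (plus strand) and Foxa3 at chr7:19023490-19023789 (minus strand). Capitals mark the matches to the motifs named after the sequences, read 5′ to 3′ on the gene's strand.
Alb: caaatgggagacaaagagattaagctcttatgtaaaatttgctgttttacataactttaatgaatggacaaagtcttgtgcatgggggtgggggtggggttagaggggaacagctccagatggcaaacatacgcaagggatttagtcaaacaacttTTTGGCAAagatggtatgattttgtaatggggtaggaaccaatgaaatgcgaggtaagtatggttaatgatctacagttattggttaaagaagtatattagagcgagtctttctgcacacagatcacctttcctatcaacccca
Afp: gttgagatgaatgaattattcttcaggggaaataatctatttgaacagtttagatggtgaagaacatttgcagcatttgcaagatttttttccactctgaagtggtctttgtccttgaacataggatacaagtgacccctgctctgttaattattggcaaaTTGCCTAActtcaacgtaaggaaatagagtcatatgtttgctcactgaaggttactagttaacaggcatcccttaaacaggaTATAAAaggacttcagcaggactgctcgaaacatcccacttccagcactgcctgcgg
Ambp: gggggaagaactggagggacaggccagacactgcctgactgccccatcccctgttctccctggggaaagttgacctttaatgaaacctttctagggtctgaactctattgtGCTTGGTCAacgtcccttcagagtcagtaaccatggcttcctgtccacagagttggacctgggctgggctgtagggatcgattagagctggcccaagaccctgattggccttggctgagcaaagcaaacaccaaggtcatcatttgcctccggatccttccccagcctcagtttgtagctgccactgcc
Ahsg: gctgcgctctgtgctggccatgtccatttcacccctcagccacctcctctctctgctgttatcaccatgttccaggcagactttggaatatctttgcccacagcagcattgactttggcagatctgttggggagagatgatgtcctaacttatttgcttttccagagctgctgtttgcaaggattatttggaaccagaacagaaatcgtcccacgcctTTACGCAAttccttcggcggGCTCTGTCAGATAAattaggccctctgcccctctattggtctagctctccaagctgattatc
Foxa3: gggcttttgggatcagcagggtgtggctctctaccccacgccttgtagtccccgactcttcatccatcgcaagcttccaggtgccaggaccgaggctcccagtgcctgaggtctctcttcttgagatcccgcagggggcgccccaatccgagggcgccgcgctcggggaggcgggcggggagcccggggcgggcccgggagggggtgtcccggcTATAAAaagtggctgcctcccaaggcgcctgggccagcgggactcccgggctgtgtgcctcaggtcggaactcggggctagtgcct

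Short motifs were searched on both strands. For FOXA proteins these were the forkhead forms TGTTTAC and, less common, TATTTAC. For other liver factors they were the HNF4 core sequence CAAAGTCCA and the CEBP form TTGCNNAA. The element that CNC and small Maf dimers bind was searched by its core TGACNNNGC, and the related AP-1 type by the letters TGANTCA. The sequence AGATAA stood for the zinc finger factors of the GATA family, and the promoter element TATAAA was searched as well. The CEBP form was found in 3 of 11 member windows, against 10.8% of 32851 windows of the same length. It lay from -94 to -87 in Alb, from -89 to -82 in Afp and from -32 to -25 in Ahsg, counted from the start site. The CNC and small Maf core was found in Ambp from -139 to -131 and in Ahsg from -12 to -4, that is in 2 of 11 windows against 12.4% of all. In Ahsg it shares a base with a match to AGATAA. A match to TGTTTAC, present in 3.65% of all windows, was found in Foxa1 alone, from -141 to -135. No window held TATTTAC (3.04% of all), CAAAGTCCA (0.475%) or TGANTCA (7.81%). AGATAA was in 3 of 11 windows against 11.2%, and TATAAA in 3 of 11 against 13.6%, from -7 to -2 in Afp and from -36 to -31 in Foxa3. These are matches of letters in a short window, not measured binding sites.

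**Figure D1:**
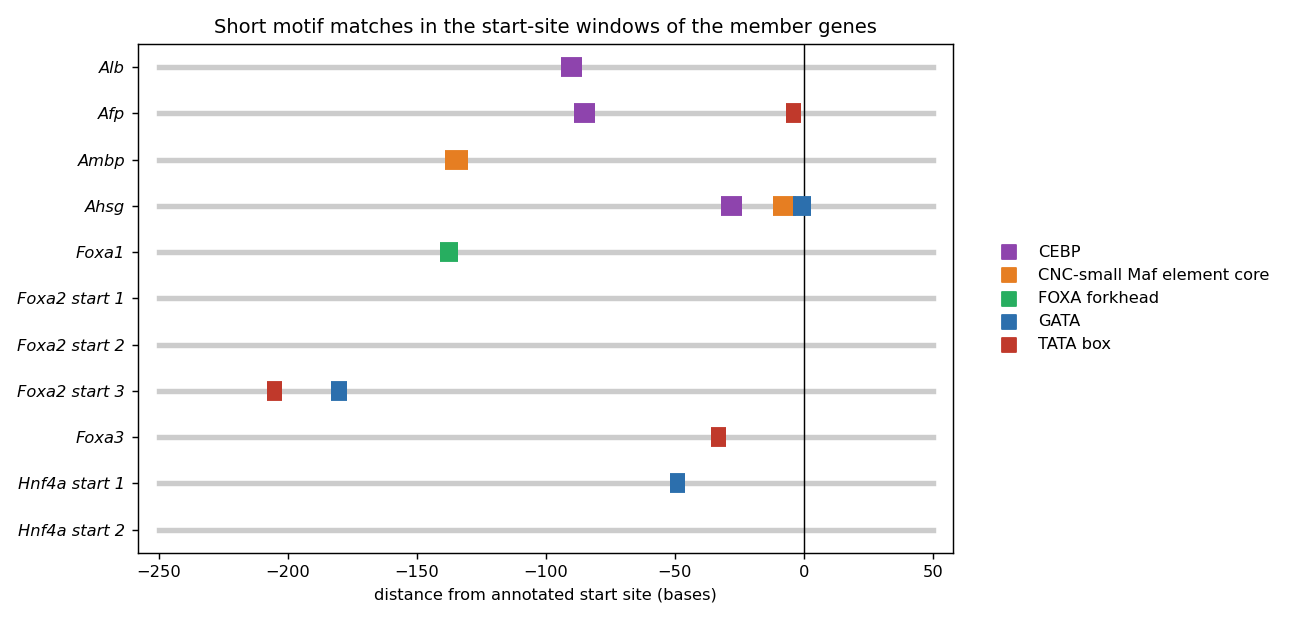
Positions of the motif matches (coloured blocks, drawn to length) in the 11 start-site windows of the 8 genes (grey lines), by distance from the annotated start in bases. Alb and Afp each hold a CEBP match upstream of the start, and the first and second windows of Foxa2 hold none.

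Alb encodes the main plasma protein of the liver and is an early product of the hepatoblast. The signal used here is the processed intensity of the Agilent software, which includes background subtraction. For Alb it was 218 in triple null, 1130 in MafG-intact E10.5 and 106 in E9.5 embryos, with a spot error of at most 10.2%. The level used for comparison is log2 of the signal minus that of the 75th percentile signal on the same array, which removes differences in overall brightness, and Alb stood at -2.30, -0.33 and -3.32 in the same order. The MafG-intact E10.5 pool was thus the high one, and the triple null pool lay between the stages. Alb was 3.93-fold lower in triple null than in MafG-intact embryos of the same stage (log2 difference -1.98, spot error 0.20). Counted from the lowest of 12529 genes in that comparison, Alb was number 111. From E9.5 to E10.5 in MafG-intact embryos Alb was 7.96-fold higher (2.99, error 0.21), number 18 of 12514 genes from the top. With normexp background correction this stage difference was 2.40. Against the younger MafG-intact pool the triple null embryos had 2.02-fold more Alb signal (1.02, error 0.21). That last value only just passes 2-fold, and it was 0.69 with normexp background correction and 0.98 with scaling on spike-in probes. In whole-embryo RNA, fewer cells of a type and less RNA per cell cannot be told apart, for Alb and for every gene below.

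Afp encodes the fetal counterpart of albumin, and its probe was printed 10 times on each array. The spots ran from 8072 to 9478 on the triple null array with a mean of 8798, from 26244 to 29200 (mean 27655) at E10.5 with MafG intact and from 13091 to 15814 (mean 14417) on the E9.5 array. The 3 sets of spots did not overlap before scaling, but overall brightness also differed between the arrays. The 75th percentile signal was 1078, 1420 and 1064 in the same order. The 10 spots of an array share 1 pool. How many of the 245 probes printed 10 times separate likewise was not counted, so the separation is not a result about Afp. After scaling, the levels were 3.03 ± 0.06, 4.28 ± 0.04 and 3.76 ± 0.08 (SD over 10 spots of 1 array). Unlike Alb, Afp had its lowest level in the triple null pool, below the younger embryos as well. It was 2.39-fold lower in triple null than in MafG-intact embryos at E10.5 (-1.26, error 0.20) and 1.66-fold lower than at E9.5 (-0.73), number 127 of 12521 genes from the lowest. Between the MafG-intact stages it was 1.44-fold higher at E10.5 (0.52).

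Ambp encodes the precursor of alpha-1-microglobulin and of the protease inhibitor bikunin. Its signal was 1926 in triple null, 4668 in MafG-intact E10.5 and 1428 in MafG-intact E9.5 embryos, with levels of 0.84, 1.72 and 0.42. The order of the arrays was that of Alb, with smaller steps. Ambp was 1.84-fold lower in triple null than in MafG-intact embryos at E10.5 (-0.88, error 0.20). It was 2.45-fold higher at E10.5 than at E9.5 in MafG-intact embryos (1.29) and 1.33-fold higher in triple null than in MafG-intact E9.5 embryos (0.41).

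Ahsg encodes fetuin-A, an abundant serum protein of the fetus. Its probe was dim, with signals of 19.0, 36.0 and 23.1 in the order triple null, MafG-intact E10.5 and E9.5, and a spot error of 12.5% to 15.3%. The levels were -5.82, -5.30 and -5.52. The E10.5 difference of -0.52 (error 0.28) had the sign of the other secreted proteins, but it was 0.12 with normexp background correction, so Ahsg shows no settled direction. Its differences of 0.22 between stages and -0.30 between triple null and E9.5 embryos were about as large as the spot errors of 0.27 and 0.30.

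**Figure D2:**
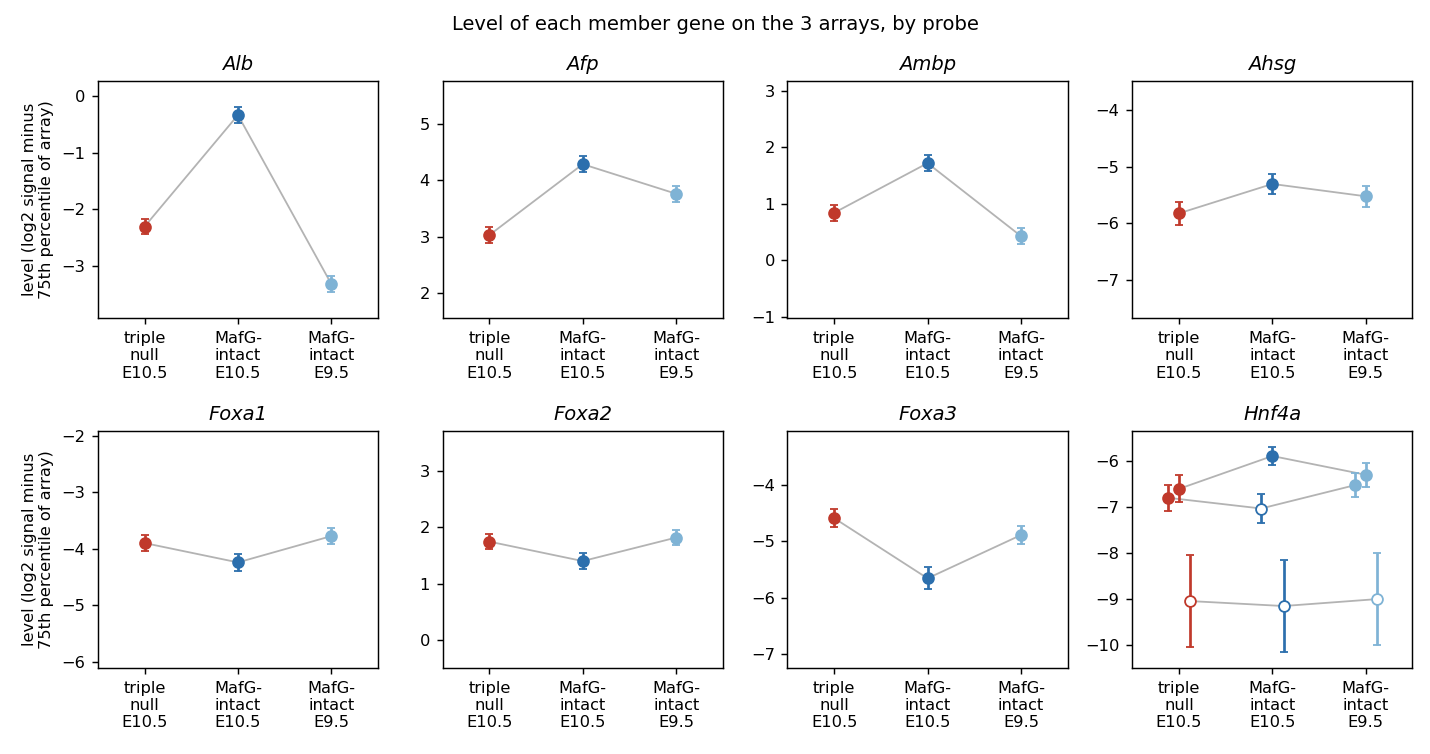
Level of each member probe (log2 signal minus the array's 75th percentile) on the triple null array and the MafG-intact arrays of E10.5 and E9.5, with the spot error of the software as bars; open circles are probes not well above background. Alb, Afp and Ambp peak on the MafG-intact E10.5 array, on which Foxa1, Foxa2 and Foxa3 have their lowest level.

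The Foxa genes had their lowest level on the MafG-intact E10.5 array, where Alb, Afp and Ambp had their highest. Foxa1, a pioneer factor of foregut endoderm, gave signals of 72.3, 75.1 and 77.7 in the order triple null, MafG-intact E10.5 and E9.5, and levels of -3.90, -4.24 and -3.77. It was 1.27-fold higher in triple null than in MafG-intact embryos at E10.5 (0.34, error 0.22) and 1.38-fold lower at E10.5 than at E9.5 (-0.47, error 0.21). The unscaled signals lay within their spot errors of 10.4% to 10.6%, so these differences were present only after scaling of the arrays. With scaling on spike-in probes they were 0.32 and -0.48.

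Foxa2, which acts with Foxa1 in the foregut and also patterns the ventral neural tube, was printed 10 times. Its mean signal was 3623 in triple null, 3757 in MafG-intact E10.5 and 3756 in MafG-intact E9.5 embryos. The scaled levels ran from 1.60 to 1.87, from 1.28 to 1.51 and from 1.76 to 1.92 over the spots. After scaling, which shifts each array by 1 value, triple null and E9.5 spots overlapped, and both lay above the MafG-intact E10.5 spots. How many of the 245 probes printed 10 times separate in this way was not counted. The 10 spots of an array again share 1 pool. The differences were 0.34 between the genotypes at E10.5, -0.42 between the MafG-intact stages and -0.07 between triple null and E9.5 embryos, each with a spot error of 0.20. As for Foxa1, the unscaled signals were nearly equal on the 3 arrays. Over 9 other ways of processing, the E10.5 difference of Foxa2 lay between 0.30 and 0.35.

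Foxa3, also called HNF3 gamma, was the only one of the 8 genes at least 2-fold higher in triple null than in MafG-intact embryos at E10.5. Its signals were 44.8 in triple null, 28.2 in MafG-intact E10.5 and 35.9 in MafG-intact E9.5 embryos, and its levels -4.59, -5.65 and -4.89. The difference at E10.5 was 1.07 (2.09-fold, error 0.26), number 108 of 12529 genes from the top. The probe is dim: its spots read 105, 88.5 and 88.5 over a local background of 50, 50 and 45. With normexp background correction the difference was 0.65, which is under 2-fold. Foxa3 was 1.70-fold lower at E10.5 than at E9.5 in MafG-intact embryos (-0.77, error 0.27), and 0.30 higher on the log2 scale in triple null than in E9.5 embryos (error 0.24).

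Hnf4a had 3 probes, all close to background. One (A_52_P683991) was well above background on the 3 arrays, with signals of 11.1, 23.9 and 13.5 and differences of -0.71 (error 0.39) between the genotypes at E10.5 and 0.41 between the MafG-intact stages. A further probe (A_51_P198473) gave 9.69, 10.9 and 11.5 and fell short of the background limit for MafG-intact E10.5, and the last (A_52_P69656) fell short of it on every array. The first pair of probes differed in sign at E10.5, and their mean difference was -0.24 (error 0.30). The probe above background on all arrays peaked on the MafG-intact E10.5 array, as Alb, Afp and Ambp did. No direction is given for Hnf4a, because the difference depends on the probe and the mean is within its error.

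The comparison of genotypes at E10.5 asks how the liver genes stand with and without MafG in embryos that lack MafF and MafK. In that comparison 3 of 8 genes were at least 2-fold apart, Alb and Afp lower and Foxa3 higher in triple null. Of the 12529 genes measured in both pools, 5.45% were that far apart, 4.47% lower and 0.982% higher. Of genes as dim as Foxa3 (mean level under -4), 2.46% were at least 2-fold higher. Of genes at a level of 0 or over, to which Afp belongs, 1.07% were at least 2-fold lower. The median difference of the 8 genes was -0.38 against 0.06 for all genes, but it was 0.18 with normexp background correction, which moved Ahsg and Hnf4a across 0.

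The comparison of stages in MafG-intact embryos covers the time in which the liver bud grows out. Here 2 of 8 genes were at least 2-fold apart, Alb and Ambp, both higher at E10.5, against 5.19% of 12514 genes apart, 4.12% higher and 1.07% lower. The median of the 8 was 0.09 against -0.05 for all genes. Triple null E10.5 and E9.5 MafG-intact embryos differ in both genotype and stage. Alb alone was at least 2-fold apart in that comparison, on the higher side, where 0.783% of 12521 genes were apart, 0.256% higher and 0.527% lower, and the median of the 8 was -0.10 against 0.01. The 3 comparisons share arrays, the third difference being the sum of the other two, so they are not separate evidence.

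**Figure D3:**
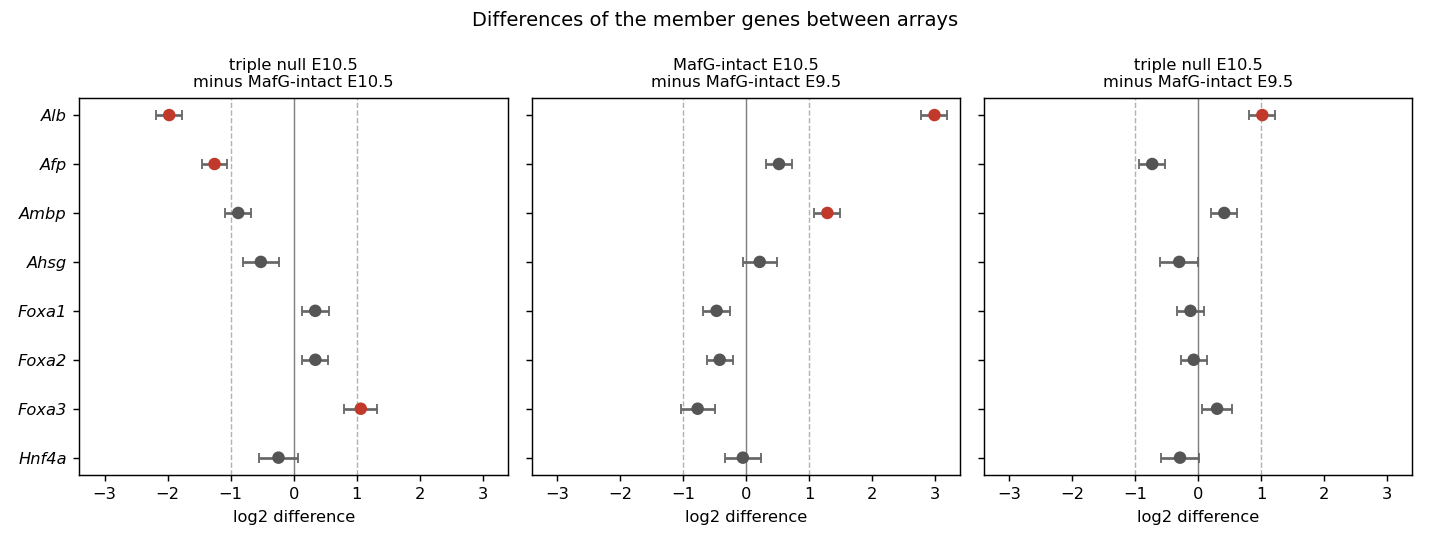
Log2 difference of each of the 8 genes in the 3 comparisons, with the combined spot error as bars, dashed lines at 2-fold and red points for genes at least 2-fold apart. Alb is at -1.98, 2.99 and 1.02, while Foxa2 lies within 0.42 of 0 in every comparison.

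Other secreted liver proteins were read from a list of 22 genes, of which 17 were above background on both E10.5 arrays. In triple null embryos 5 of these 17 were at least 2-fold lower and none higher, 14 of 17 lay below 0, and the median was -0.62. With normexp background correction 2 of 17 were lower, Serpina6 and Trf, and the median was -0.17. Serpina6, the corticosteroid carrier of plasma, was the farthest at -3.29. The others were Itih3, an inter-alpha-inhibitor chain (-1.54), Trf, the iron carrier transferrin (-1.43), Ttr, the thyroxine carrier transthyretin (-1.28), and the complement component C3 (-1.24). Between the MafG-intact stages 4 of 16 were at least 2-fold higher at E10.5, with a median of 0.42. They were Serpina6 (4.29), C3 (1.66), Itih2 (1.40) and Itih3 (1.31). With normexp 1 of 16 was 2-fold higher, Serpina6, and the median was 0.05. In triple null against E9.5 embryos Serpina6 was 1.01 higher, a call that normexp also removed. Ttr was at -0.43 in MafG-intact E10.5 against E9.5 embryos and at -1.71 in triple null against E9.5 embryos, where Apom, a lipoprotein component, was at -1.27. The Ttr probe was dim (level -6.28 in triple null), and with normexp Ttr passed 2-fold in no comparison. Fetub and Apoh were not well above background on any array.

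Of 23 factors of the wider liver network, 3 were at least 2-fold lower in triple null than in MafG-intact embryos at E10.5, none was higher, and the median was -0.10 (0.10 with normexp background correction). All 3 were cut-homeobox factors: Onecut1 (-1.08), also called HNF6, Onecut2 (-1.15) and Onecut3 (-1.69). The 2 probes of Onecut3 were at -2.57 and -0.82, so 1 of them was under 2-fold. The 3 Onecut genes were also the 3 of 22 factors at least 2-fold higher at E10.5 than at E9.5 (1.20, 1.17 and 1.86), where Sall4, a stem cell factor, was 2.01-fold lower. With normexp background correction Onecut2 alone of these genes passed 2-fold, in both comparisons. The Onecut genes are also known from developing neurons, and 12 of 15 neuronal differentiation genes were at least 2-fold lower in triple null embryos at E10.5 (median -2.21, summed scaled signal 13.4 against 54.5). In MafG-intact embryos 12 of 15 were at least 2-fold higher at E10.5 than at E9.5, where the summed signal was 13.7. Between triple null and E9.5 embryos 0 of 15 were 2-fold apart (median -0.01). The part of neurons in the Onecut values was not tested. Hhex, needed for the liver bud to form, was at 0.57 and Prox1, needed for hepatoblasts to migrate, at -0.25 in triple null against MafG-intact embryos at E10.5. Against MafG-intact E9.5 embryos 0 of 22 factors were 2-fold apart. Cebpa, a driver of hepatocyte maturation, was the farthest at 0.82, with its 2 probes at 0.25 and 1.39.

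Surface, cytoskeleton and bile duct markers of hepatoblasts were split between higher and lower. Of 17 such genes 9 lay above 0 and 8 below between the genotypes at E10.5, with a median of 0.26, and 7 of 16 lay above 0 and 9 below between the MafG-intact stages. The gene at least 2-fold apart at E10.5 was Tdo2, a tryptophan-degrading enzyme, at 1.51. Its signal was weak in MafG-intact E10.5 embryos (level -6.99), and with normexp background correction 0 of 17 genes were 2-fold apart. The keratins of simple epithelia, Krt8 and Krt18, were 0.80 and 0.75 higher in triple null than in MafG-intact embryos, and at -0.88 and -0.78 in MafG-intact E10.5 against E9.5 embryos. Dlk1, a surface protein of hepatoblasts that other embryonic cells also carry, differed by no more than 0.20 in any comparison. The enzymes of the mature hepatocyte Cyp7a1, G6pc and Pck1 were not well above background on any array. Tat, an enzyme that appears late in liver development, was above background at E10.5 only, at least 2.48-fold higher in MafG-intact and at least 2.02-fold higher in triple null E10.5 embryos than at E9.5. Cyp3a11, an enzyme of drug and steroid metabolism, went the other way: it was above background at E9.5 alone, at least 5.11-fold over MafG-intact E10.5 embryos, and not above background in triple null embryos either.

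**Figure D4:**
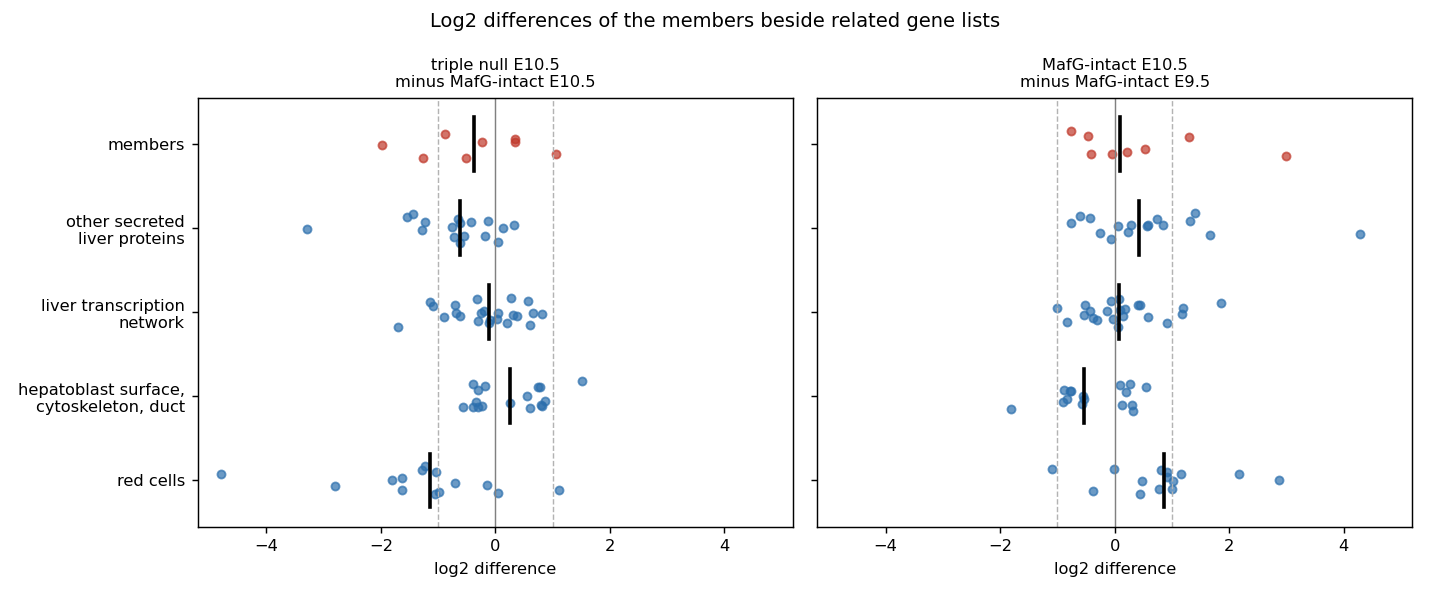
Log2 differences of the genes of 5 lists in the comparison of genotypes at E10.5 and in that of the MafG-intact stages, 1 point per gene, with the median of each list as a black bar. Medians of the other secreted liver proteins are -0.62 and 0.42, those of the surface and cytoskeleton markers 0.26 and -0.54.

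Since whole embryos hold other cells that make these transcripts, the markers of those cells were read beside the members. Yolk sac endoderm makes Afp, Ttr and Hnf4a. Its list was above background for 17 of 21 genes in triple null, 19 in MafG-intact E10.5 and 20 in MafG-intact E9.5 embryos, with a summed scaled signal of 14.9, 14.7 and 17.4. Amn, part of the endocytic receptor of this epithelium, had levels of -3.69 in triple null, -4.23 in MafG-intact E10.5 and -1.65 in E9.5 embryos. Spp2, a secreted phosphoprotein, was at -2.78 in MafG-intact E10.5 against E9.5 embryos. Both genes stood highest on the E9.5 array. Apoa2, Fgg and Apoc1 had the order of Afp, lowest in triple null and highest in MafG-intact E10.5 embryos. In triple null, MafG-intact E10.5 and E9.5 embryos Apoa2 stood at -3.01, -1.30 and -1.92 and Fgg at -2.34, -0.89 and -1.88. Apoc1 stood at -1.32, -0.52 and -0.97. Fgb did not share this order (-0.42, 0.11 and -0.91). Fga did (level -5.09 in MafG-intact E10.5 and -5.94 in E9.5 embryos), but it was not above background in triple null embryos. There it was at least 3.64-fold lower than in MafG-intact E10.5 and at least 2.02-fold lower than in E9.5 embryos. The list as a whole was split between the genotypes at E10.5, with 8 of 17 genes above 0 and 9 below. Between the MafG-intact stages 5 of 19 lay above 0 and 14 below. Apoa4 was above background on the E9.5 array alone, at least 4.74-fold over the MafG-intact embryos of the later stage, and Apoc3 on none. Between the genotypes at E10.5, 3 of 17 genes of the list were at least 2-fold lower in triple null (Apoa2 -1.71, Fgg -1.44 and Apoa1 -1.28), all of which the liver makes too, and the median was -0.06. With normexp background correction the Apoa1 call was lost and the median was 0.07. Against E9.5 embryos 5 of 17 were lower in triple null, with a median of -0.47 and Spp2 at -3.62. The part of yolk sac endoderm in the Afp and Ttr values was not tested.

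Floor plate and notochord, which carry Foxa1 and Foxa2, had all 18 of their markers above background on each array and summed scaled signals of 10.4, 10.6 and 10.98. Shh, the signal of both structures, differed by 0.34 at most. At E10.5, 2 of 18 were at least 2-fold higher in triple null, T (1.37) and Nkx2-9 (1.82). Foxj1, a factor of ciliated cells, was lower (-1.01, a call lost with normexp background correction). The median of this list was -0.09 between the genotypes at E10.5 (0.11 with normexp) and -0.08 between the MafG-intact stages. The gut, lung and pancreas list had summed signals of 9.26, 8.28 and 9.99 and a median of 0.27 between the genotypes at E10.5, and 3 of its 20 genes were 2-fold or more higher, 2 lower (1 and 1 with normexp background correction). Cdx2, the hindgut and tail bud factor, was the farthest at 3.27, and the pancreas and hindbrain factor Ptf1a stood at -2.61. Between the MafG-intact stages the median of this list was -0.39. The part of these tissues in the Foxa values was not tested.

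The mesenchyme that the liver bud invades had 13 of 13 markers above background and none 2-fold apart in any comparison. Lhx2, a factor of this mesenchyme and of the eye and brain, was the farthest between the genotypes at E10.5 (-0.90). Red cells, which the fetal liver comes to produce, differed more. At E10.5, 9 of 14 genes of the fetal liver and red cell list were at least 2-fold lower in triple null and 1 higher, with a median of -1.14. The higher gene was Epo (1.12), which was dim (level -6.26 in MafG-intact E10.5 embryos). Summed scaled signals were 350 in triple null, 617 in MafG-intact E10.5 and 416 in E9.5 embryos. The adult globin Hbb-bt was at -4.79 between the genotypes, 2.86 between the MafG-intact stages and -1.92 in triple null against E9.5 embryos. In that last comparison its 4 probes ran from -2.38 to -0.86. Hbb-bt was thus lowest in triple null embryos, as Afp was. Most blood genes and secreted liver proteins were lower in triple null than in MafG-intact embryos at E10.5. Against E9.5 embryos, 13 of 14 genes of the red cell list lay below 0 (median -0.32). Of the other secreted liver proteins, 9 of 16 did (median -0.07). Alb and Ambp were higher there (1.02 and 0.41), and Afp and Ahsg lower (-0.73 and -0.30). The part of blood genes in the liver values, or the reverse, was not tested.

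The genes nearest to each member over the 2 independent differences were sought among 12429 genes above background on all arrays, by distance on the log2 scale. For Alb they were Sh3rf3 (distance 0.10), Runx2 (0.50) and Actl6b (0.51), so only 1 gene lay close to its pattern. For Afp they were Cfi (0.02), C2 (0.07) and Clec1a (0.08). These genes were dim (mean levels -4.26, -5.05 and -5.97), and the distances were smaller than the spot error of Afp (0.20). Ambp had Igfbpl1, Ctnna2 and Gdf2, and Ahsg had Fas, Pkia and Magee1. Foxa1 had Tcof1, Chd1 and Xcr1, Foxa2 had Stxbp6, Sox18 and Wdcp, and Foxa3 had Nebl, Vsnl1 and Cstdc6. For Hnf4a, whose probes differ in sign, they were Zfhx2, Dnah8 and Mypop. Likeness here rests on 3 arrays.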

How the data were processed

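RNA of 3 pools of whole embryos was measured on 3 Agilent arrays, 1 per group. Per the file headers, the authors read the arrays with Agilent Feature Extraction 9.5.3.1 (protocol GE1-v5_95_Feb07, array design 014868, annotation build mm7). The deposited intensity is the processed intensity of that software, which includes background subtraction, on a linear scale. The value table that the authors deposited holds the same intensity, rounded (largest difference 0.497%). Agilent's intensity errors are also the deposited ones.

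From these, log2 intensity minus each array's 75th percentile over 43379 non-control spots was computed; outlier spots were left out, repeated spots and then probes of a gene above background on 1 array or more were averaged. Of 41170 probes, 22950 had 1 symbol through RefSeq accessions (GRCm38.p6). A gene was counted when both of its values passed the scanner software's background limit and stood 2-fold or more apart. With 1 value past the limit it has a bound ("at least N-fold"): the dim array enters with the gene's own value or the weakest signal past the limit there, whichever was larger. No test was possible, so no p-value is given. The steps were tested on simulated data.

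The members and lists were chosen with earlier results of these data known. The rule for named genes took all members, from each list up to 4 genes farthest apart past 2-fold in a comparison (or the 2 farthest), the 3 nearest genes of each member, Mafg, Xist and the Y-linked genes. Apoa4, Apoc3, Tat and, in the first comparison, C3 and Epo fall outside it and were named after their values were seen. The same holds for Shh, Hhex, Prox1, Dlk1, Krt8, Krt18, Fetub, Apoh, the mature enzymes, Cyp3a11, Apoc1, Fgb and Fga. In some comparisons it also holds for Apoa2 and Fgg. Also tried were normexp (offset 50) on the background, quantiles, median or spike-in scaling, other filters on dim probes, the brightest or median probe, the deposited value table, and 1.5-fold and 3-fold thresholds. Work was done in Python 3.11.15 (pandas 2.3.3, numpy 2.4.6, matplotlib 3.10.9) and R 4.3.3 (limma 3.58.1).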

Additional observations from a re-analysis of the deposited data

How the results depend on the processing

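With normexp background correction the median of the 8 genes went from -0.38 to 0.18 for triple null against MafG-intact embryos at E10.5 and from 0.09 to -0.22 between the MafG-intact stages. With only probes above background on all arrays, and with the brightest probe of each gene, these medians were -0.62 and 0.31. At 3-fold, 1 of 8 genes was apart in each of these comparisons. For triple null against MafG-intact E9.5 embryos, 0 genes were 2-fold apart with normexp or spike-in scaling, 2 were apart at 1.5-fold and 0 at 3-fold. Over 9 alternatives to the processing, 6 genes kept their sign in all 3 comparisons, and Ahsg and Hnf4a did not. Between the genotypes at E10.5, Alb was 3.26-fold to 3.99-fold lower, Afp ran from -1.31 to -1.25, and Foxa3 kept 2-fold in 8 of 9. Over all genes, 683, 650 and 98 were 2-fold apart in the 3 comparisons, 267, 255 and 27 with normexp, and 1242, 1227 and 517 without a filter on dim probes. Normexp moved the median of all genes to 0.11 and -0.10 in the first and second comparisons. No paired analysis was possible because each group is a single array. Leaving out an array was not possible for the same reason. Signal over background limits Ahsg, Foxa3 and Hnf4a, and the number of arrays limits every value.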
